A study of Drosophila melanogaster with 9 samples.

Results

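The list of transposable element (TE) insertion sites of double-GKD flies held 4084 sites, and 1610 of them lay outside the 5 major arms (X and both arms of chromosomes 2 and 3). These 1610 sites, chosen by the name of their sequence alone, were on chromosome 4, on the heterochromatic sequences 2LHet, 2RHet, 3LHet, 3RHet and XHet (the Het sequences), and on U and Uextra. The other 2474 sites, on the arms, served for comparison. DNA came from 1 library of whole females aged 2 to 4 days and kept at 18 °C. Their genotype carried UAS-Dcr-2 with the w[1118] allele over a wild-type X chromosome, UAS-Piwi-RNAi, UAS-HP1a-RNAi and the driver GAL4-nos.NGT, in which the nanos promoter acts in the germline, so the knockdown is a germline one while the DNA is that of the whole body. RNA came from ovaries of females aged 0 to 1 day at 18 °C, in 8 libraries of 4 groups with 2 replicates each. Besides double-GKD and Ctrl there were 2 single knockdowns, HP1a-GKD and Piwi-GKD by their labels, with 1 RNAi construct each, and they entered only the shared estimate of spread. The Ctrl females carried UAS-Dcr-2 with w[1118], GAL4-nos.NGT over the balancer Cy and + over TM3, without an RNAi construct, so UAS-Dcr-2, w[1118] and the driver were common to all groups. No DNA library of Ctrl flies was analysed here, and the site list therefore describes 1 pool of flies and not an effect of the knockdown.

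Heterochromatin of Drosophila melanogaster surrounds the centromeres, is packed with HP1a on histone H3 methylated at lysine 9, and consists mostly of satellites and TE copies. In release 5 of the genome, Het sequences are heterochromatic scaffolds mapped to a chromosome arm, and U and Uextra collect scaffolds without a chromosome. Chromosome 4, the dot chromosome, is small, binds HP1a along most of its length and still carries actively transcribed genes. TEs fall into LTR retrotransposons, which copy themselves through RNA and have long terminal repeats, non-LTR retrotransposons such as the LINE-like I-element and jockey, DNA transposons with terminal inverted repeats (TIR), the Foldback element FB, and Helitrons. Nuclear Piwi, guided by piRNAs, directs HP1a-dependent silencing to TE copies in the germline.

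Each site was given with its family, its order, the side from which read pairs supported it, and an insertion frequency. The frequency is the fraction of the coverage at the site that supports the insertion. The coverage was low: the median total coverage was 3.77 on the 1610 sites and 4.61 on the arms, and the lowest supporting coverage of any site was 2. Among the sequences described here the median ran from 3.41 on U to 4.92 on Uextra. A site may be a TE copy that the reference genome also holds or one that it lacks, and the list does not separate them. Tests between lists of sites compare sequences within this library, sites are not independent of each other, and intervals cover counting error only.

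The Het sequences and chromosome 4 had nearly the same density of sites, far above that of the arms taken whole. The Het sequences held 946 sites over 8.84 Mb of span, which is 107 sites per Mb (exact 95% Poisson interval 100.3 to 114), where the span runs from the first to the last site of each sequence. Chromosome 4 held 142 sites over 1.31 Mb, 108 per Mb (91.1 to 127). The arms held 20.8 per Mb (20.01 to 21.7). Within the arms, however, the 2 Mb next to the centromere held 110.2 sites per Mb and the rest 12.6. These ends differed among themselves, from 45.5 per Mb on 3R (36.6 to 55.9) and 66.0 on X to 157.5 on 2R (140.6 to 175.9).

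Among single Het sequences, 2RHet held 359 sites at 109.6 per Mb (98.5 to 122), and 3LHet held 300 sites at 119 per Mb (106 to 133). On 3RHet there were 237 sites at 94.4 per Mb (82.8 to 107), on 2LHet 28 sites at 82.1 per Mb (54.6 to 119) and on XHet 22 sites at 118 per Mb (74.1 to 179). The intervals of all 5 overlap that of chromosome 4. The unplaced scaffolds were sparser, with 294 sites on U at 30.4 per Mb (27.0 to 34.0) and 228 on Uextra at 8.32 per Mb (7.27 to 9.47), the latter below every arm. In windows of 100 kb, no window of a Het sequence or of chromosome 4 was empty, while 27 of 98 windows on U and 143 of 275 on Uextra were. Windows held 1 to 29 sites on 2RHet (median 10), 1 to 28 on 3LHet (median 12.5), 2 to 20 on 3RHet (median 9) and 3 to 20 on chromosome 4 (median 10.5). The median gap between neighbouring sites was 3604 bases on 2RHet and 6043 on chromosome 4, against 61344 on Uextra and 14060 on the arms.

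**Figure D1:**
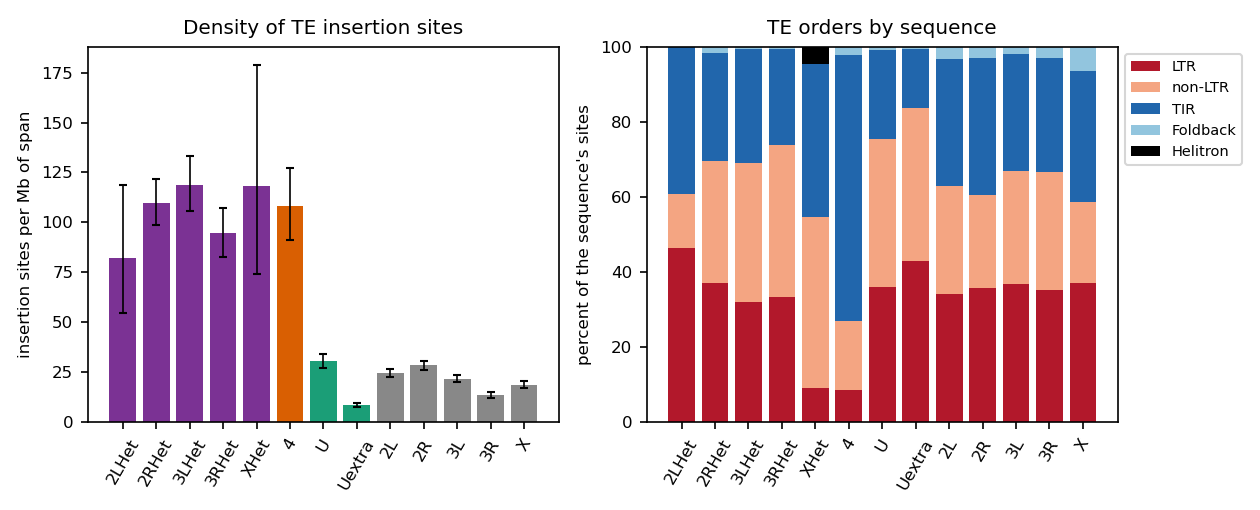
Left, insertion sites per Mb of span (linear axis) on each sequence of release 5, with exact 95% Poisson intervals as error bars; purple bars are Het sequences, orange chromosome 4, green U and Uextra, grey the arms. Right, percent of each sequence's sites in each TE order; TIR elements made up 71.1% of the sites on chromosome 4 and 15.8% on Uextra.

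Non-LTR retrotransposons were the order with most sites, 573 of 1610 (35.6%, exact Clopper-Pearson 95% interval 33.2 to 38.0), followed by 539 LTR sites (33.5%, 31.2 to 35.8) and 482 TIR sites (29.9%, 27.7 to 32.2). FB had 15 sites (0.93%, 0.52 to 1.53), and the 1 Helitron site of the whole list was on XHet. On the arms the shares were 27.3% non-LTR, 35.7% LTR, 33.6% TIR and 3.35% FB. In Fisher's exact tests (two-sided, adjusted over these 4 orders), non-LTR sites took a larger share than on the arms, with an odds ratio of 1.47 (95% interval 1.28 to 1.68, adjusted p = 1.0e-07), and FB a smaller one, 0.27 (0.16 to 0.47, adjusted p = 5.6e-07). The LTR share did not pass, with an odds ratio of 0.91 (0.79 to 1.03, adjusted p = 0.149 in the exact test). The TIR share was lower with an odds ratio of 0.84 (0.74 to 0.97, adjusted p = 0.018 in the exact test), but without U and Uextra the odds ratio was 1.04, and it was 1.29 against arms without their centromeric 2 Mb. With both-sided support only, neither the non-LTR share (1.32) nor the FB share (0.43) passed, and the LTR share passed as lower under 4 alternatives, at 0.59 to 0.85.

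Chromosome 4 stood apart from the other sequences in its orders. Of its 142 sites, 101 (71.1%) were TIR elements, against 33.6% on the arms (odds ratio 4.86, 3.35 to 7.06, adjusted p = 1.1e-17, exact test adjusted over the 8 sequences). Within the arms, the TIR share was 44.5% in the centromeric 2 Mb, from 37.7% on 3L to 54.5% on X, and 24.9% on the rest. Only 12 sites of chromosome 4 (8.45%) were LTR retrotransposons, with an odds ratio of 0.17 (0.092 to 0.30, adjusted p = 2.1e-12), and 26 (18.3%) were non-LTR, 0.60 (0.39 to 0.92, adjusted p = 0.031), in the same exact tests. XHet also had few LTR sites, 2 of 22 (odds ratio 0.18, adjusted p = 0.028 by the exact test). TIR shares were 23.8% on U and 15.8% on Uextra, with odds ratios of 0.62 (adjusted p = 0.0016) and 0.37 (adjusted p = 3.1e-08), both by the exact test. On 3RHet the TIR share was 25.7% (odds ratio 0.68, adjusted p = 0.028, exact test), and on 2LHet, 2RHet, 3LHet and XHet the TIR share did not pass. A larger non-LTR share passed on 3LHet (37.0%), 3RHet (40.5%), U (39.5%) and Uextra (40.8%), where adjusted p ran from 8.4e-05 to 0.0013 in the exact test. The non-LTR shares of 2RHet (32.6%), XHet (45.5%) and 2LHet (14.3%) did not pass.

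The 1610 sites belonged to 116 of the 121 families in the list, and 3 families supplied 492 of them (30.6%). The short DNA transposon ‘1360’ (family names made of digits are in quotation marks) had 222 sites, the non-LTR element Cr1a had 145, and INE-1, a very abundant short non-autonomous element that the list counts as TIR, had 125. The next families were baggins (36 sites), Doc3-element (35), I-element (26), diver2 (26), ‘297’ (25), Max-element (25), GATE (24), F-element (22), Porto1 (22) and Stalker4 (22). By sequence, 2RHet held 87 families, U 83, 3LHet 77, Uextra 74, 3RHet 69, chromosome 4 32, 2LHet 18 and XHet 15. Helitron, Stalker3 and invader6 had 1 site each here and none on the arms. The families copia, P-element, hopper2, NOF and accord had sites only on the arms.

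The leading families were not spread alike over the sequences. The element ‘1360’ had 50 sites each on 2RHet and 3LHet, 36 on U, 31 on 3RHet, 27 on chromosome 4, 23 on Uextra and 5 on 2LHet, and none on XHet. Cr1a had 38 sites on 3LHet, 35 on 2RHet, 23 each on 3RHet and U, 15 on Uextra and 9 on chromosome 4. INE-1 had 46 sites on chromosome 4, 26 on 2RHet, 21 on 3LHet, 15 on U, 8 on 3RHet, 6 on XHet and 3 on 2LHet, and 0 of 228 on Uextra. INE-1 and ‘1360’ together thus gave most of the TIR sites of chromosome 4.

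**Figure D2:**
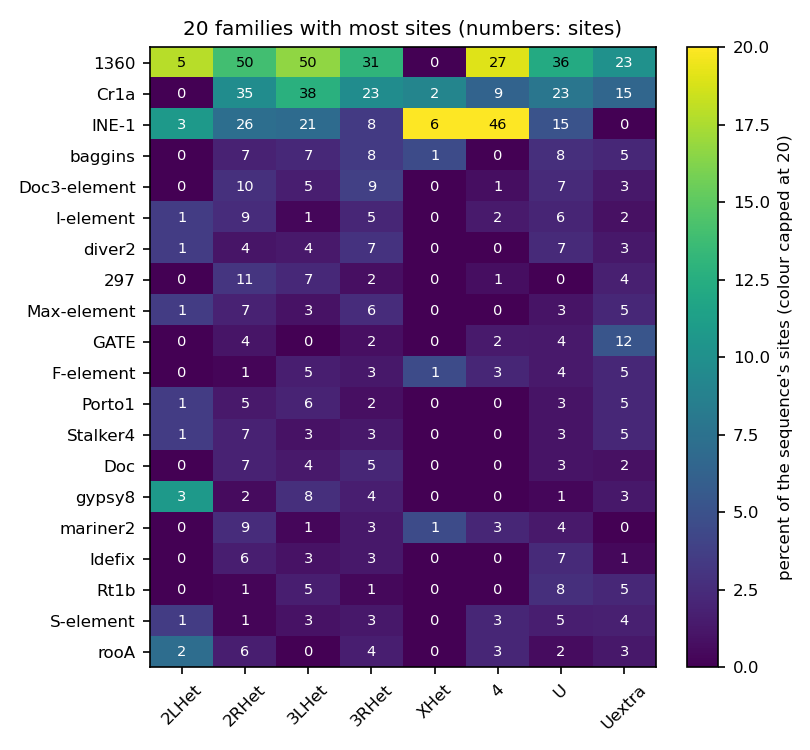
Numbers of insertion sites (printed) of the 20 families with most sites on the sequences outside the arms; colour gives the percent of each sequence's own sites, capped at 20. INE-1 reaches 46 sites on chromosome 4 and 0 on Uextra, and ‘1360’ reaches 50 sites on both 2RHet and 3LHet.

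Shares of families within the 1610 sites were compared between chromosome 4, the Het sequences, and U with Uextra, each against the rest of the 1610. These exact tests were added after values had been seen, for all 51 families with enough sites, in 153 tests, of which 14 (9.15%) passed. On chromosome 4, INE-1 took 32.4% of the sites against 5.38% elsewhere (odds ratio 8.42, 5.55 to 12.8, adjusted p = 6.2e-18 by Fisher's exact test). The mariner-like element Tc1 had 8 sites there and 4 elsewhere (adjusted p = 4.2e-05), and HB, another TIR element, 5 and 6 (adjusted p = 0.018), by the same exact test. On U and Uextra, 14 sites of the non-LTR element G2 stood against 0 of 1088 on the Het sequences and chromosome 4, a count that allows a share of up to 0.276%. The rDNA element R1A1-element had 13 sites on U and Uextra and 3 elsewhere, HeT-A 11 and 2, rover 11 and 3, GATE 16 and 8, and Rt1b 13 and 7, with adjusted p from 6.4e-06 to 0.033 for these 6 families (exact test). INE-1 was lower there, 15 of 522 sites (odds ratio 0.26, adjusted p = 5.9e-06, exact test). The remaining calls were of G2, HeT-A, R1A1-element and GATE, each lower on the Het sequences.

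Against the arms, 92 families with at least 10 sites in the list were tested. Of these, 20 (21.7%) took a larger share of the sites outside the arms and 19 (20.7%) a smaller one at an adjusted p under 0.05, and 53 did not pass. Among 46 LTR families, 11 were higher and 9 lower. Among 29 non-LTR families, 8 were higher and 4 lower. Of 16 TIR families, only ‘1360’ was higher and 5 were lower. With sites of both-sided support alone, 31 families could be tested, and 3 were higher and 6 lower, all of them among the calls above.

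A telomeric and an rDNA element had the highest odds ratios among the calls against whole arms, though not against arms without their centromeric 2 Mb (11.2 for HeT-A and 7.71 for R2-element). HeT-A, a non-LTR element that maintains telomeres in Drosophila, had 13 sites here and 1 on the arms (odds ratio 20.1, 2.63 to 154, adjusted p = 0.00028, exact test), of which 11 were on Uextra and 2 on chromosome 4. TAHRE, a related telomeric element, had 7 sites and 1 on the arms, too few to be tested. Both elements were among the last sites along chromosome 4: TAHRE at positions 1277815, 1278184 and 1305456, and HeT-A at 1305605 with a frequency of 0.829 at a coverage of 13.3, and at 1318008 with a frequency of 1 at a coverage of 2. On Uextra, TAHRE at 25249579 and HeT-A at 25249748 were likewise close together. Whether such neighbouring TAHRE and HeT-A sites are separate insertions was not tested. No site of TART-A, TART-B or TART-C was listed. R2-element, which inserts into the 28S rRNA genes, had 9 sites and 1 on the arms (odds ratio 13.9, 1.76 to 109.8, adjusted p = 0.0054, exact test). They lay on XHet (2), U (3) and Uextra (4), and none was on an autosomal Het sequence or chromosome 4. Without U and Uextra, or with both-sided support only, neither R2-element nor HeT-A had enough sites to be tested. R2-element had just enough sites in the full list, and too few with a total coverage of at least 4. It also had too few when sites of low frequency were left out or close sites of 1 family were counted once. R1A1-element, whose family also inserts into rRNA genes, had 16 and 11 (odds ratio 2.25, adjusted p = 0.10 in the exact test), and its odds ratio was 0.62 without U and Uextra. It passed as higher against arms without their centromeric 2 Mb (3.43) and with a total coverage of at least 4 (4.21).

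LTR families were also among the highest. Some Stalker4 and Stalker sites lay close together, and whether they are separate insertions was not tested. Stalker4 had 22 sites here and 4 on the arms (odds ratio 8.55, 2.94 to 24.9, adjusted p = 4.4e-05, exact test), gypsy10 had 15 and 3 (7.75), gypsy9 had 8 and 2 (6.17), Stalker 11 and 3 (5.67), and GATE 24 and 7 (5.33, 2.29 to 12.4, adjusted p = 0.00013, exact test). GATE had 12 of its 24 sites on Uextra, and its odds ratio of 2.61 did not pass without U and Uextra. The adjusted p of gypsy9 was 0.043 in the exact test, and its call was lost at frequencies of at least 0.5 (5.11). Without U and Uextra, gypsy9 and Stalker had too few sites to be tested. Doc3-element, a non-LTR element, had 35 sites and 10 on the arms (5.48, 2.70 to 11.1, adjusted p = 2.9e-06, exact test), spread over 2RHet (10), 3RHet (9), U (7), 3LHet (5), Uextra (3) and chromosome 4 (1). Cr1a, with 145 and 82 sites, had an odds ratio of 2.89 (2.19 to 3.81, adjusted p = 7.4e-13), and ‘1360’, with 222 and 178, one of 2.06 (1.68 to 2.54, adjusted p = 1.9e-10), both by the exact test. Porto1 (3.41), diver2 (3.68), Max-element (2.04) and baggins (2.00) were among the other calls, and the last 2 of these did not pass without U and Uextra (odds ratios 2.05 and 1.89). With a total coverage of at least 4, Porto1 (2.29), Max-element (1.33) and baggins (2.15) did not pass. Sites of several of these families on the arms were mostly centromeric: against arms without their centromeric 2 Mb, the odds ratio was 15.0 for Cr1a, 30.5 for Doc3-element, 19.0 for Porto1, 15.7 for baggins and 4.72 for ‘1360’, and diver2 and gypsy10 had no site left on the arms.

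The families lower than on the arms came from every order tested. The LTR element copia had 26 sites on the arms and 0 of 1610 here, which allows a share of up to 0.186%, against 1.05% on the arms (adjusted p = 2.4e-05, exact test). The non-LTR element jockey had 1 site, on Uextra, and 102 on the arms (odds ratio 0.014, 0.0020 to 0.10, adjusted p = 6.2e-20, exact test). The LTR element roo had 14 sites and 204 on the arms (0.098, 0.057 to 0.17, adjusted p = 3.8e-28, exact test). Transpac had 2 sites and 33 on the arms, BS 2 and 32, Juan 1 and 16, pogo 4 and 62, and hobo 4 and 60, with odds ratios from 0.092 to 0.10. INE-1 was lower as well, with 125 sites and 278 on the arms (0.66, 0.53 to 0.83, adjusted p = 0.0012, exact test), but its odds ratio was 1.29 and did not pass against arms without their centromeric 2 Mb, and 0.89 without U and Uextra.

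Of 17 families that the study followed as TEs under Piwi and HP1a, which were chosen with these libraries in view and are no independent set, 13 could be tested. None was higher and 8 were lower, against 21.7% higher and 20.7% lower over all families tested: copia, mdg3 (3 sites and 36 on the arms), Transpac, Burdock (3 and 23), blood (2 and 25), Juan, jockey and ‘412’ (6 and 46). The other 5 tested were HMS-Beagle (8 and 14), 3S18 (3 and 14), aurora-element (14 and 12), gypsy7 (6 and 4) and ‘297’ (25 and 51). Against arms without their centromeric 2 Mb, where it had no site left, aurora-element passed as higher (adjusted p = 0.00055) and 3S18 as lower (odds ratio 0.21, adjusted p = 0.016), both by the exact test. Of the 8 lower calls, copia (odds ratio 0), mdg3 (0.14) and Burdock (0.93) did not pass with both-sided support only. Transpac, jockey and ‘412’ still passed there, and blood and Juan had too few sites. With a total coverage of at least 4, Burdock (0.14) and blood (0.22) did not pass, and the others did. Bari1, frogger, G-element and ‘1731’ had 2, 6, 5 and 3 sites here, and 2, 1, 2 and 3 on the arms. All 17 together had 90 sites here and 410 on the arms.

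Gypsy-like elements with an env gene had 90 sites here and 117 on the arms, and of the 5 families tested only Idefix was higher (20 and 9 sites, odds ratio 3.45, adjusted p = 0.0062, exact test). The others tested were gypsy (6 and 9), ‘297’, ‘17.6’ (12 and 14) and Quasimodo (16 and 23), and ZAM had 4 sites here and 4 on the arms. Of the elements known for hybrid dysgenesis, P-element had 0 sites here and 4 on the arms, hobo was lower, and I-element, with 26 sites and 36 on the arms, did not pass (odds ratio 1.11, 0.67 to 1.85). Of 9 short DNA elements, ‘1360’ was higher, INE-1, S-element, pogo and hopper were lower, Tc1 and transib2 did not pass, and Bari1 and transib1 were not tested. The S-element call was lost when sites of 1 family within 500 bases were counted once (0.56), and the hopper call without U and Uextra (0.47) or without chromosome 4 (0.35). With a total coverage of at least 4, neither passed (0.56 and 0.30).

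**Figure D3:**
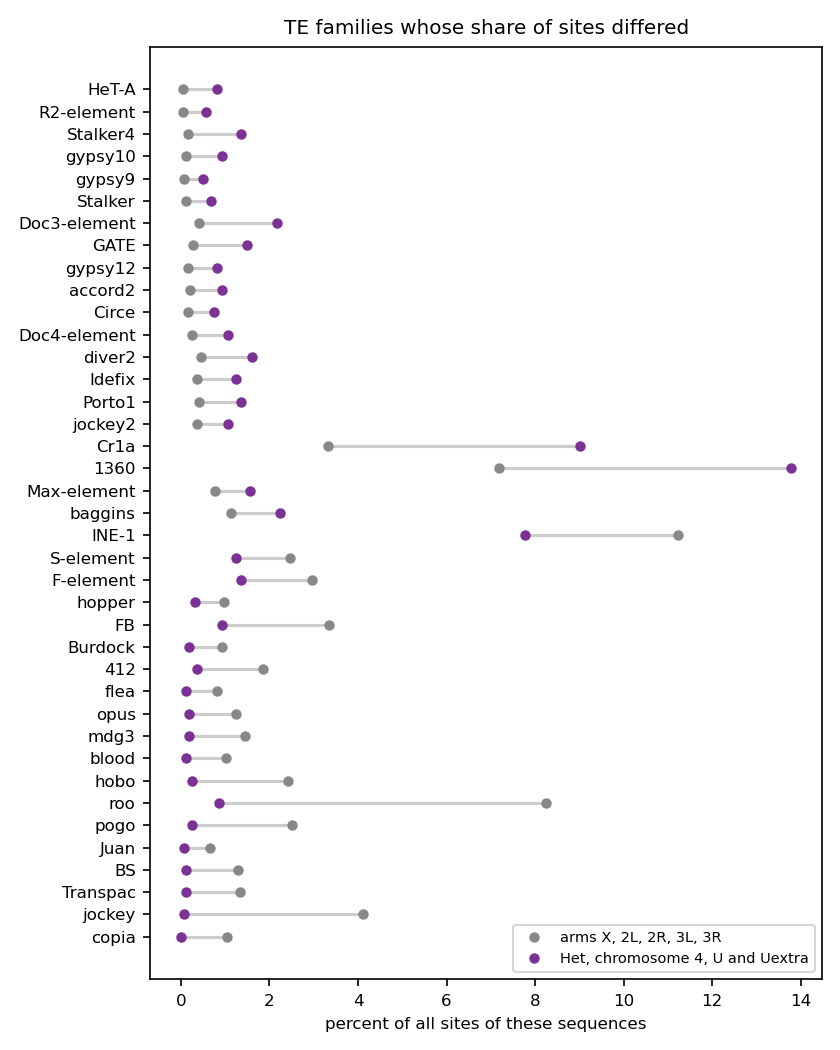
Percent of all sites taken by each of the 39 families whose share differed at an adjusted p under 0.05, outside the arms (purple) and on the arms (grey), ordered by odds ratio. Cr1a reaches 9.01% outside the arms against 3.31% on them, and roo 0.87% against 8.25%.

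Insertions outside the arms were mostly at a high frequency. The median frequency was 1, against 0.75 on the arms, and 1101 of 1610 sites (68.4%, exact Clopper-Pearson interval 66.1 to 70.7) reached at least 0.9, against 841 of 2474 (34.0%, 32.1 to 35.9). The odds ratio was 4.20 (3.67 to 4.80, p = 2.4e-104, two-sided Fisher's exact test). Within families the ratio was smaller, 2.67 (2.29 to 3.11, p = 2.3e-40, Mantel-Haenszel chi-square test over 113 families). Against arms without their centromeric 2 Mb it was 9.57. Coverage moved with this difference, since sites here were less covered than on the arms (medians of 3.77 and 4.61). Among sites with a total coverage of at least 4 the odds ratio was 4.87.

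All 8 sequences had a larger share of such sites than the arms (adjusted p from 1.4e-34 to 0.0057 in exact tests over the 8). The share was 75.5% on 3RHet (69.5 to 80.9), 70.0% on 3LHet (64.5 to 75.1), 68.7% on U (63.1 to 74.0), 67.9% on 2LHet (47.6 to 84.1), 66.9% on 2RHet (61.7 to 71.7), 66.2% on Uextra (59.7 to 72.3), 63.6% on XHet (40.7 to 82.8) and 60.6% on chromosome 4 (52.0 to 68.7). Chromosome 4 was the lowest, with a median frequency of 0.992, but its interval overlaps those of all others except 3RHet. A frequency below 0.5 was found at 41 of the 1610 sites and at 476 of 2474 on the arms. Coverage limits this comparison, since supporting coverage was at least 2. A site supported from 1 side with a total coverage under 4 cannot fall below 0.5. The median total coverage was 3.77 here and 4.61 on the arms.

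By order, the share of sites at 0.9 or above was 67.7% for LTR elements against 24.3% on the arms (odds ratio 6.52, 5.14 to 8.26), 74.3% against 39.5% for non-LTR elements (4.44, 3.48 to 5.66), 61.6% against 39.7% for TIR elements (2.44, 1.94 to 3.07) and 12 of 15 against 29 of 83 for FB (7.45, 1.94 to 28.5), with adjusted p of 0.0016 or less in exact tests. Families differed in this share. Of the roo sites 11 of 14 reached 0.9, against 23 of 204 on the arms, and of the I-element sites 22 of 26 against 3 of 36. For Cr1a the shares were much alike, 107 of 145 (73.8%) and 62 of 82 (75.6%) on the arms. INE-1 had 39 of 125 sites (31.2%) at 0.9 or above, against 24.1% on the arms, and a median of 0.75. Of the ‘412’ sites 3 of 6 reached 0.9, of mdg3 1 of 3, and of blood none of 2. Stalker4 (7 of 22) and Stalker (3 of 11) also had few such sites. Some sites of these 2 families lay close together. On 2LHet they were at 213719 (Stalker4, frequency 0.696) and 213766 (Stalker, 0.523). On 3LHet they were at 2535287 (Stalker4, 0.35) and 2535165 (Stalker, 0.552). Whether such a pair is 1 insertion called under 2 names was not tested.

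**Figure D4:**
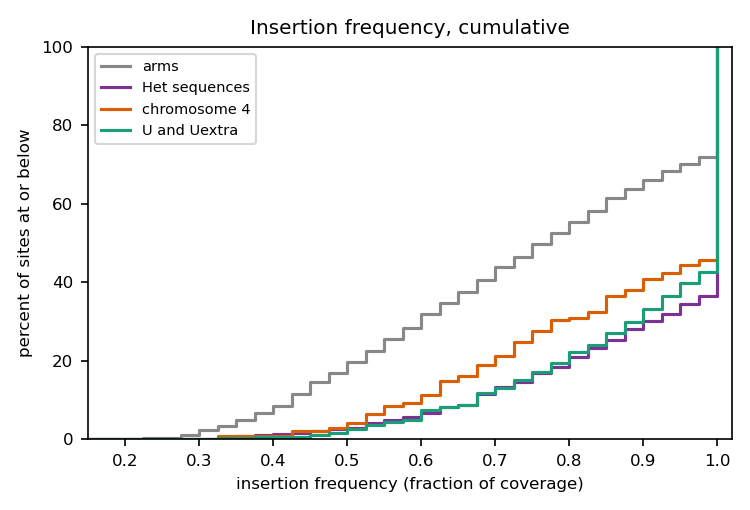
Cumulative percent of sites (vertical axis) at or below each insertion frequency (horizontal axis, fraction of coverage, in steps of 0.025) on the arms, the Het sequences, chromosome 4, and U with Uextra. The curves outside the arms stay low up to 0.9 and rise at 1; 58.1% of these sites, and 25.9% on the arms, had a frequency of exactly 1.

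Support from both sides of a site was less common outside the arms, 330 of 1610 sites (20.5%, 18.5 to 22.6) against 715 (28.9%, 27.1 to 30.7), with an odds ratio of 0.63 (0.55 to 0.74, p = 1.3e-09, Fisher's exact test) and of 0.67 within families. This was the case on Uextra (9.21%, 5.79 to 13.7), U (16.7%), 3RHet (20.3%) and 3LHet (22.7%), with adjusted p from 2.7e-11 to 0.0498 in exact tests. On chromosome 4 the share was 28.9% (21.6 to 37.1), with an odds ratio of 1.00 (0.69 to 1.45).

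RNA was set beside the sites for genes whose release 5 spans could be read. Of 25 such genes on these sequences, 19 held 82 of the sites in their span: 53 TIR, 14 LTR, 11 non-LTR and 4 FB sites, 51 of them at a frequency of 0.9 or above. The question was which of these genes differed in ovary RNA between double-GKD and Ctrl. In edgeR, 18 of the 19 could be tested, and 5 rose, 5 fell and 8 did not pass. Over all 9346 genes tested, 28.1% rose and 28.1% fell, so the shares of these genes were close to the background. Their median log2 fold change was 0.10 against 0.00 over all genes. Leaving out Ctrl replicate 2 or double-GKD replicate 1 left 2 genes lower in place of 5. Which genes have spans was set by what could be read, and whether this is unrelated to their values was not tested.

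Dbp80, a DEAD-box RNA helicase on 3LHet, held 24 sites of 18 families in a span of 135 kb, 16 of them at a frequency of 0.9 or above. Whether its neighbouring Stalker and Stalker4 sites, or its S-element sites at 2410529 and 2411688, are separate insertions was not tested. Its level was 207 and 275 TPM (transcripts per 1000000) in the Ctrl libraries and 199 and 195 in the double-GKD libraries. Both double-GKD values lay below both Ctrl values, and edgeR gave a log2 fold change of -0.65 (SE 0.22, adjusted p = 0.038), a call lost without Ctrl replicate 2 (-0.35) or without either double-GKD library (-0.58 and -0.74). Parp, a poly(ADP-ribose) polymerase on 3RHet with 11 sites in 91.6 kb, stood at 109 and 123 TPM in Ctrl and 95.3 and 103 in double-GKD. Its groups did not overlap either (log2 fold change -0.54, SE 0.19, adjusted p = 0.041 in edgeR), and the call was lost without Ctrl replicate 2 (-0.37) or double-GKD replicate 1 (-0.41).

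On 2RHet, rl, which encodes the MAP kinase ERK, held 11 sites in 53.8 kb. Whether its FB sites at 201952 and 203132, each supported from 1 side, are separate insertions was not tested. The groups of rl overlapped, with 102 and 129 TPM in Ctrl and 128 and 135 in double-GKD, and its log2 fold change was -0.04 (SE 0.21). The translation initiation factor eIF-4B, with 4 TIR sites, stood at 457 and 446 TPM in Ctrl and 334 and 337 in double-GKD (log2 fold change -0.79, SE 0.12, adjusted p = 0.0011 in edgeR). Scp1, a calcium-binding protein gene with 7 sites, stood between 0.433 and 1.14 TPM in all 4 libraries. On XHet, su(f), an mRNA 3′ end processing factor with 1 INE-1 site, had 38.9 and 33.5 TPM in Ctrl and 41.7 and 38.1 in double-GKD. Of the 6 genes on Het sequences, with 58 sites in all, 3 fell and none rose, against 28.1% in each direction over all genes, and the falls of Dbp80 and Parp are those lost without 1 library.

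On chromosome 4, 13 genes held 24 sites, and of 12 tested 5 rose and 2 fell, against 28.1% in each direction over all genes. The largest change was that of zfh2, a zinc finger homeodomain factor, at 0.747 and 0.802 TPM in Ctrl and 4.71 and 3.81 in double-GKD (log2 fold change 2.11, SE 0.16, adjusted p = 4.9e-05 in edgeR). Its 5 sites were 2 of HB and 1 each of ‘1360’, INE-1 and ‘412’, all below a frequency of 0.9 (0.306 to 0.792). Both double-GKD values of zfh2 lay above both Ctrl values. The titin-like muscle protein gene bt, with a ‘1360’ and a Tc1 site, had 74.0 and 62.4 TPM in Ctrl and 291 and 195 in double-GKD (log2 fold change 1.50, SE 0.16, adjusted p = 0.00019 in edgeR). The Hedgehog pathway factor ci, with a ‘1360’ and an INE-1 site, had 34.5 and 27.9 TPM in Ctrl and 90.3 and 79.6 in double-GKD (1.12, SE 0.097, adjusted p = 7.8e-05 in edgeR). Neither gene's groups overlapped.

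Pur-alpha, a nucleic acid binding protein gene with 2 FB sites, both at a frequency of 1, had 43.6 and 49.7 TPM in Ctrl and 102 and 105 in double-GKD (log2 fold change 0.90, SE 0.16, adjusted p = 0.0028 in edgeR). These FB sites, at 581560 and 583498, were each supported from 1 side, and whether they are separate insertions was not tested. Ank, an ankyrin gene with sites of HB, Tc1 and S2, had 150.2 and 148 TPM against 242 and 224 (0.32, SE 0.096, adjusted p = 0.026 in edgeR), a call lost without Ctrl replicate 1 (0.23) or either double-GKD library (0.34 and 0.28). It was also lost in a fit of only the 4 double-GKD and Ctrl libraries (0.33) and without the filter on low counts (0.28). The genes that fell were eIF4G, the scaffold of translation initiation, and pho, a DNA-binding Polycomb group factor. With 1 INE-1 site, eIF4G had 360 and 313 TPM in Ctrl and 237 and 225 in double-GKD (-0.87, SE 0.078, adjusted p = 9.6e-05 in edgeR). With 1 jockey2 site, pho had 62.1 and 68.0 TPM against 58.2 and 59.7 (-0.47, SE 0.15, adjusted p = 0.029 in edgeR), a call lost without Ctrl replicate 2 (-0.30) or double-GKD replicate 1 (-0.35). The Pax gene sv, Actbeta, CaMKI, Slip1 and Zyx did not pass, and the Pax6 gene toy, with 2 INE-1 sites and at most 0.251 TPM, was not tested. Of the 6 genes whose span held no site, mGluRA rose, ATPsyn-beta and RpS3A fell, and Arf102F and Crk did not pass. Of these, mGluRA had 4 sites within 3 kb of its span, and counting sites within 3 kb made it 1 of 6 genes that rose.

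**Figure D5:**
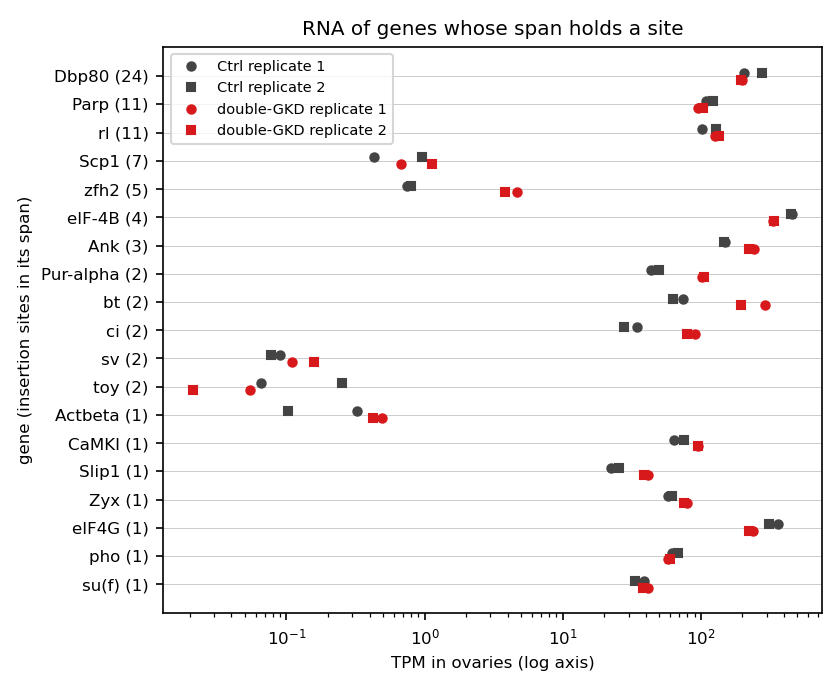
TPM in ovaries (log axis) of the 19 genes whose span holds a site, in the 2 Ctrl (dark) and 2 double-GKD (red) libraries, with the number of sites in parentheses. The double-GKD values of zfh2 (4.71 and 3.81) lie above those of Ctrl (0.747 and 0.802), and those of rl overlap.

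TPM and the fitted values are on different scales: mean TPM ratios on the log2 scale were above the edgeR log2 fold changes by a median of 0.32 over 9277 genes, so that Zyx, at 57.7 and 61.9 TPM in Ctrl and 78.8 and 75.7 in double-GKD, had a log2 fold change of 0.03. In bulk RNA, fewer cells of a type and less RNA per cell cannot be told apart. Some markers of cell types moved with the contrast and others did not, and the makeup of the ovaries itself was not measured. Of 4 tested germline markers (osk, orb, otu and grk) 3 fell, with a summed level of 1257 and 1229 TPM in Ctrl and 262 and 252 in double-GKD, and all 5 tested muscle markers rose, from 2303 and 2179 to 8589 and 7063. The germline marker that did not pass was grk (log2 fold change 0.05). Of 3 tested follicle cell markers 1 rose, Fas3, while tj (0.22) and Yp1 (1.50) did not pass. The targets piwi (log2 fold change -1.28) and the gene of HP1a (-1.32) were both lower. The part of these shifts in the changes of the genes above was not tested.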

How the data were processed

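Paired-end reads of 1 DNA library were aligned by the authors to TE consensus sequences and release 5 of the genome, and sites were called with PoPoolationTE2. The deposited insertion frequency is a fraction, and a further column, read as supporting over total coverage, equalled it within 0.001 at every site with 1-sided support and at 426 of 1045 others. For RNA, the authors deposited estimated counts and TPM from Salmon, 10773406 to 12802084 estimated counts per library. Tool versions are not given in the sources used here.

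Sites were counted by sequence name. Shares were compared with two-sided Fisher's exact tests and Benjamini-Hochberg adjustment, over families with at least 10 sites. Odds ratio intervals come from the log odds. Estimated counts were rounded and fitted over all 8 libraries in edgeR 4.0.16 (R 4.3.3; glmQLFit, glmQLFTest, TMM, filterByExpr), and genes were called at an adjusted p under 0.05. The single knockdowns, whose labels go against their target mRNA, entered only the estimate of the spread, which exchanged labels leave as it is. Replicates were labelled as separate, and nothing in the labels ties them to separate flies. DESeq2 1.42.0 was an alternative, and scripts were tested on simulated data. Python 3.11.15 with scipy 1.17.1, statsmodels 0.14.6, pandas 2.3.3 and matplotlib 3.10.9 was used.

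Named families were the 12 with most sites, the 8 highest and 8 lowest odds ratios among the calls, and those of the lists (telomeric, rDNA, study, env, dysgenesis, short DNA elements). Named genes were all those with a span holding a site. Spans in release 5 came from the study's gene tables, for 2013 genes. Members and lists were chosen with earlier results of these data known. The families G2, rover, Rt1b, HB, S2 and others outside these rules were named after their values were seen. Germline, muscle and follicle markers without a match (vas, nos, wupA) were not used here.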

Additional observations from a re-analysis of the deposited data

How the results depend on the processing

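Shares of orders depended most on which sites were counted. With both-sided support only, the odds ratios were 0.59 for LTR (passing), 1.32 for non-LTR and 0.43 for FB (neither passing) and 1.30 for TIR. Without U and Uextra, LTR passed at 0.80 and TIR stood at 1.04; without chromosome 4, LTR stood at 1.01. Against arms without their centromeric 2 Mb, LTR passed at 0.69 and TIR at 1.29, and without INE-1 LTR passed at 0.85 while TIR, 0.94, did not. The odds ratios of frequency (2.67 to 9.57) and support (0.55 to 0.77) kept direction and call under every alternative run for them. Higher family calls numbered 3 with both-sided support, 11 without U and Uextra, 13 with a total coverage of at least 4 (an alternative chosen after seeing the data) and 13 with at least 20 sites per family, and lower calls 6 with both-sided support; in the first, 31 families remained testable. Density with both-sided support was 24.8 sites per Mb on the Het sequences and 31.2 on chromosome 4. The arms held 715 such sites over 118.8 Mb of span.

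Odds ratios crossed 1 for INE-1 (1.29), ‘17.6’ (0.93) and I-element (0.65) against arms without their centromeric 2 Mb, for I-element (0.60) and HMS-Beagle (1.63) with coverage of at least 4, for Quasimodo (0.99) and R1A1-element (0.62) without U and Uextra, and for Tc1 without chromosome 4 (0.42) or with sites below a frequency of 0.5 left out (0.95). The causes were not tested. Leaving out 1 library in turn gave 4 to 6 genes up and 2 to 6 down. In these fits, where the lone library of a group is assumed to vary like the others, log2 fold changes ran through 0 for rl (-0.29 to 0.24), Scp1 (-0.48 to 0.85), sv (-0.17 to 0.60), CaMKI (-0.071 to 0.35) and Zyx (-0.11 to 0.16), and Zyx stood at -0.0035 without the filter on low counts. None of these 5 genes had passed. Calls lost or gained without 1 library were those of Dbp80, Parp, pho and Ank, given above, and of Actbeta (1.71 without Ctrl replicate 1) and Slip1 (0.58 without Ctrl replicate 2), which then passed.

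Same-numbered replicates deviated together by r of -0.043 to 0.233, with 4 of the 6 pairs of groups over 0.1, so a pairing by number was not established. With the replicate block, 6 of the genes holding a site rose and 5 fell, Slip1 being added, and over all genes 2868 rose and 2897 fell. Coverage near 4 per site limits how finely a frequency can be read.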

Other observations

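Of the 25 sites with the highest total coverage outside the arms, 23 were on U or Uextra. A total coverage of at least 20 was reached by 23 of the 1610 sites, 22 of them on U or Uextra, and by 3 sites on the arms. The highest was an mdg1 site at position 9454498 of U, with a coverage of 62.2 and a frequency of 1, supported from 1 side. GATE sites at 10995991 of Uextra and 8367690 of U followed, at 49.2 and 47.8, the first supported from both sides, then Idefix at 8507145 of U with 40.8. HeT-A reached 25.9 at 13587013 of Uextra.

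Runs of at least 5 sites with gaps of at most 2 kb numbered 8, on 2RHet, 3LHet, 3RHet and U, and none was on chromosome 4. The longest in sites held 6, at 226420 to 230529 of U (gypsy, ‘1360’, Idefix and gypsy7) and at 3154149 to 3158086 of 2RHet (INE-1, ‘1360’, R1A1-element, G5A and gypsy10). Neighbouring sites were of the same family for 207 of 1602 neighbours outside the arms (12.9%) and for 332 of 2469 on them (13.4%), and for 32 of 141 on chromosome 4 (22.7%). On chromosome 4, INE-1 took 46 and ‘1360’ 27 of the 142 sites. The share that this makeup alone would give was not computed. The strand given for a site was plus for 773 and minus for 828 of the 1610, and for 58 and 84 of the sites on chromosome 4.

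Within the arms, the centromeric 2 Mb held 280 sites on 2L, 315 on 2R and 284 on 3L, but 91 on 3R and 132 on X. Of the 1102 sites there, 53.4% had a frequency of 0.9 or above, as had 18.4% of the 1372 on the rest of the arms, values on either side of the arms' 34.0%.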
